A study of Mus musculus with 8 samples.

Results

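Hox genes encode homeodomain transcription factors that lie in 4 clusters of the mouse genome, Hoxa, Hoxb, Hoxc and Hoxd. They were measured here in 4 mouse epithelial lines, 2 from kidney tubules and 2 from mammary gland. The members are the genes whose array probe sets carry a single symbol of the form Hox, a cluster letter and a number. There are 33 of them among the 18193 genes with a single symbol on the array, and 39 Hox genes stand in the gene table of assembly GRCm38.p6. The 33 divide into 9 of 11 Hoxa genes on chromosome 6, 9 of 10 Hoxb genes on chromosome 11, 7 of 9 Hoxc genes on chromosome 15 and 8 of 9 Hoxd genes on chromosome 2. The other 6 genes of that table were not analysed here.

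The mammary lines were EpH4 and NMuMG, and the kidney lines were mProx, labelled as proximal tubular, and MCT, labelled as tubular. Of the 2 arrays per line, 1 is from resting cells and 1 from cells given rhTGF-b1 at 3 ng/mL together with rhEGF at 3 ng/mL for 24 h, the stimulus used to induce the epithelial-mesenchymal transition (EMT). The labels mark EpH4 as EMT resistant. Resting and stimulated cells alike had first been kept for 24 h in a medium with transferrin and insulin. The line is the replicate, so a tissue is represented by 2 lines and a condition by 4, and the labels do not say whether separate cultures were grown. Tissue and any other trait that separates these 4 lines cannot be told apart.

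As background, the order of the genes along a Hox cluster follows the order in which they are switched on along the body axis. Low paralog numbers lie at the anterior end and act towards the head, and high numbers lie at the posterior end and act towards the tail. Adult tissues and cultured cells often keep a Hox pattern related to their position of origin, held in place by Polycomb and Trithorax chromatin complexes. In the kidney, the paralog 11 genes are needed for the outgrowth of the ureteric bud, and in the mammary gland the paralog 9 genes are needed for its growth in pregnancy. HOX proteins bind DNA with PBX and MEIS partners.

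Of the 33 genes, 19 had a RefSeq promoter window of 300 bases in the GRCm38.p6 table, running from 250 bases before to 50 bases after the annotated start. The bases before the start are printed for 5 genes whose levels, described further on, differed most plainly in pattern. These patterns are those of the probe set that the rule chose for each gene. Hoxa9 was high in both kidney lines and dim in both mammary lines by that probe set, though not by its second one, and Hoxa5 was above the dim level in all 4 lines. Hoxd8, Hoxd9 and Hoxd10 are neighbours on chromosome 2, of which Hoxd8 was high in both kidney lines, Hoxd9 in mProx alone and Hoxd10 in no line. Each sequence reads 5′ to 3′ on the gene's strand, with CG dinucleotides, the sites of DNA methylation, in capitals. The windows are chr6:52227371-52227620 on the minus strand for Hoxa9, chr6:52204588-52204837 on the minus strand for Hoxa5, and, on the plus strand, chr2:74704365-74704614 for Hoxd8, chr2:74697513-74697762 for Hoxd9 and chr2:74691641-74691890 for Hoxd10.
Hoxa9: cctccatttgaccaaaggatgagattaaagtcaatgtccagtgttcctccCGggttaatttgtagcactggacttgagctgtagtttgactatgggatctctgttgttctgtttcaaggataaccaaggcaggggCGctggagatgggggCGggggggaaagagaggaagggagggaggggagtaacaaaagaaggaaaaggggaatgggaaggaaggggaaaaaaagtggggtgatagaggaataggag
Hoxa5: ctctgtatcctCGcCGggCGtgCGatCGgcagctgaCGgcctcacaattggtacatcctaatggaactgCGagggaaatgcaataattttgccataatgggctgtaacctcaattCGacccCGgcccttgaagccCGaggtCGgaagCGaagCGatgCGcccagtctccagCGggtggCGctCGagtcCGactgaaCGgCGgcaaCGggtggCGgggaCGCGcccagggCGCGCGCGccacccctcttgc
Hoxd8: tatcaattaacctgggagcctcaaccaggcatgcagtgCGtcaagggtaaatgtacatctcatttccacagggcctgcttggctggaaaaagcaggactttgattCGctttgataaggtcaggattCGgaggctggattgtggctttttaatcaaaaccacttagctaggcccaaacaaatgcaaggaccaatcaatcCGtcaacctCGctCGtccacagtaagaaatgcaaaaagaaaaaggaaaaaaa
Hoxd9: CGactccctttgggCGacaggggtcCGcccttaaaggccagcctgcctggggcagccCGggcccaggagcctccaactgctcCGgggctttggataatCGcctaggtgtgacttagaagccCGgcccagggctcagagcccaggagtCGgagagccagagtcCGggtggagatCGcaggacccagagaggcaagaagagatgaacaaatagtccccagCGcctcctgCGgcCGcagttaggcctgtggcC
Hoxd10: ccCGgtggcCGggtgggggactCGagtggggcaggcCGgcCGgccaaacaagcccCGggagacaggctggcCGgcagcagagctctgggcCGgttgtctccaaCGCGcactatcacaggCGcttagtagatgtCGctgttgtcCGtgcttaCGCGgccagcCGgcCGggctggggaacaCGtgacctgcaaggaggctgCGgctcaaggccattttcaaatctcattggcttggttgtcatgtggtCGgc

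These printed stretches hold 3 CG dinucleotides for Hoxa9, 28 for Hoxa5, 6 for Hoxd8, 13 for Hoxd9 and 20 for Hoxd10. Hoxa9 and Hoxd8, which were high in both kidney lines, were the CG-poorest of the 5, in a set chosen for its levels, so no test was made. Beyond that set, a low count was not confined to such genes. In the full windows, Hoxd11, which was dim on every array, held 4, as did Hoxa9. Hoxd8 held 6 there, and Hoxa10, also high in both kidney lines, held 12. The other genes dim on every array held 10 (Hoxb1), 13 (Hoxd12), 22 (Hoxd10) and 29 (Hoxd1). Over the full windows, the 19 Hox promoters held a median of 14 CG dinucleotides, with a range of 4 to 45. The median over the windows of all 27025 genes was 7, with quartiles at 3 and 21. Motifs were searched on both strands of the full windows. The TATA box TATAAA was found in 1 of 19 Hox windows, that of Hoxd13, and in 14.2% of all windows. The HOX-PBX site TGATNNAT was found in 2, Hoxa2 and Hoxb1, and in 9.04% of all, and the MEIS core TGACAG in 2, Hoxa2 and Hoxa3, and in 19.3% of all. The SMAD palindrome GTCTAGAC was found in 0 of 19 and in 0.211% of all windows. None of the 5 printed genes held any of these 4 motifs in its window.

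Levels are given as log2 of the deposited array signal plus an offset of 10.6, quantile-normalized over the 8 arrays. One probe set stands for each gene, and its brightness depends on its own probes, so levels are compared between lines and not between genes. A level under 5.27, the 40th percentile over all probe sets, is called dim here. The median signal of an array ran from 41.5 to 59.6. Over the 18193 genes, the 2 arrays of a line correlated at 0.977 to 0.985 and arrays of different lines at 0.886 to 0.947. In RNA from a culture, fewer expressing cells and less RNA per cell cannot be told apart.

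In resting cells, 25 of the 33 Hox genes were at or above the dim level in mProx and 25 in MCT. The number was 14 in EpH4 and 9 in NMuMG. Over all 18193 genes the share at or above the dim level was similar in the 4 lines, from 67.1% to 70.3%. The kidney lines thus had more Hox genes above the dim level than the mammary lines while their arrays as a whole did not. The Hoxc cluster showed the widest gap, with 7 of 7 genes above the dim level in each kidney line, 2 of 7 in EpH4 and 1 of 7 in NMuMG. Hoxb genes above it numbered 7 of 9 in mProx, 8 of 9 in MCT and 4 of 9 in each mammary line. For Hoxd the counts were 4 of 8 genes in mProx, 2 of 8 in MCT, 2 of 8 in EpH4 and 0 of 8 in NMuMG. Since probe sets differ in brightness, these counts compare lines within a cluster and do not rank the clusters by level.

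**Figure D1:**
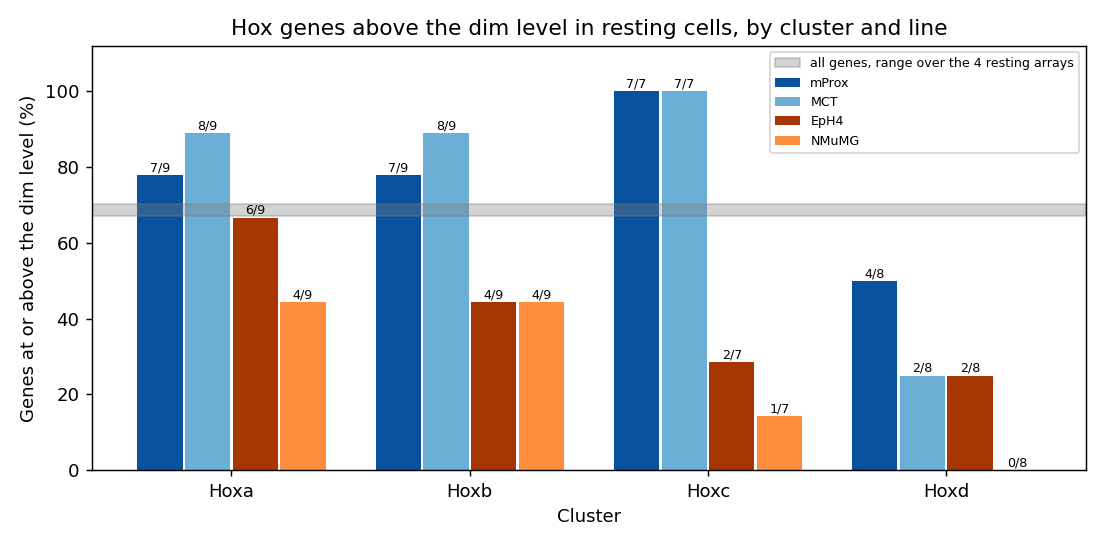
Share of measured Hox genes (percent) at or above the dim level in resting cells, by cluster, with 1 bar per line (1 array each) and the counts printed above the bars. The grey band is the range of that share over all genes on the 4 resting arrays, 67.1% to 70.3%. All 7 Hoxc genes passed the level in mProx and MCT, against 2 in EpH4 and 1 in NMuMG.

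By position along the cluster, the anterior genes (paralogs 1 to 3) were above the dim level in 4 of 7 cases in mProx, MCT and EpH4 alike, and in 2 of 7 in NMuMG. The central genes (4 to 8) reached it in 10 of 12 cases in mProx and 12 of 12 in MCT, against 7 of 12 in EpH4 and 4 of 12 in NMuMG. Posterior genes (9 to 13) reached it in 11 of 14 cases in mProx and 9 of 14 in MCT, against 3 of 14 in each mammary line. By these counts the kidney and mammary lines differed in central and posterior genes more than in anterior ones. The anterior class held no Hoxc gene, and Hoxc showed the widest gap, so position and cluster cannot be told apart here.

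Both resting kidney lines lay above both resting mammary lines for 19 of the 33 Hox genes (57.6%). Over all genes this ordering held for 19.8%. The reverse ordering held for 0 Hox genes and for 16% of all genes. With the stimulated arrays added, every kidney array lay above every mammary array for 18 Hox genes (54.5%), against 8.57% of all genes. The gene lost was Hoxd11, which was dim on all 8 arrays. The median difference between the tissues at rest was 1.54 over the 33 Hox genes and 0.02 over all genes, on the log2 scale. The median differed between clusters, at 3.56 for Hoxb, 3.08 for Hoxc, 0.31 for Hoxa and 0.34 for Hoxd. In Hoxd, Hoxd1, Hoxd10, Hoxd11 and Hoxd12 were dim on all 8 arrays, where the offset understates differences. These medians therefore do not rank the clusters. By position the median was 0.31 for anterior, 1.80 for central and 2.35 for posterior genes, the last with quartiles at 0.02 and 4.87. Hoxb2 (4.53) and Hoxb3 (2.75) were anterior genes with wide differences.

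A mean at least 8-fold higher in the kidney lines was reached by 13 Hox genes (39.4%), against 0.715% of all genes, and the reverse by 0, against 0.478%. At 2-fold the counts were 19 and 0, against 8.47% and 5.99% of all genes. When all 18193 genes were ranked by the excess of kidney over mammary level, Hox genes held 4 of the first 10 places, 6 of the first 50 and 11 of the first 100. Hoxa9 stood first. For 11 genes, Hoxa9, Hoxa10, Hoxb2, Hoxb5, Hoxb13, Hoxc5, Hoxc8, Hoxc9, Hoxc10, Hoxc13 and Hoxd8, both kidney lines were at or above the dim level and both mammary lines were dim, a pattern seen in 1.37% of all genes. The reverse pattern held for 0 Hox genes and for 1.03% of all.

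**Figure D2:**
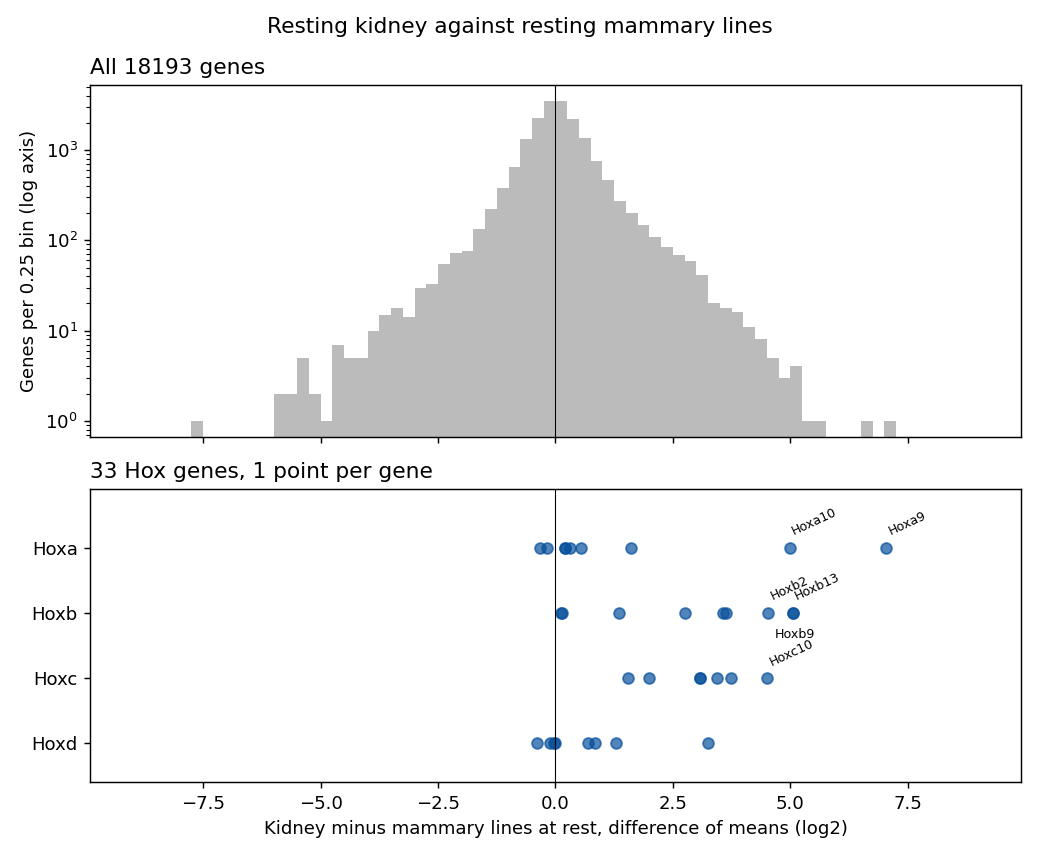
Difference between the mean of the 2 resting kidney lines and the mean of the 2 resting mammary lines (log2), as a histogram over all 18193 genes with a log count axis (top) and as 1 point per Hox gene by cluster (bottom). The labelled genes lie at 4.51 or above, Hoxb9 and Hoxb13 coincide at 5.05 and Hoxa9 lies at 7.04, while no Hox gene lies under -0.40.

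Several posterior genes had the widest differences. Hoxa9, a regulator of blood progenitors and of the posterior trunk, was at 10.88 in resting and 10.47 in stimulated mProx, 10.56 and 10.66 in MCT, 3.87 and 3.67 in EpH4, and 3.50 and 3.77 in NMuMG. The deposited signals behind these levels were 2092 and 1466 in mProx, 1499 and 1383 in MCT, 4.9 and 2.2 in EpH4, and 0.5 and 3 in NMuMG. All 4 kidney arrays were far above all 4 mammary arrays, which were dim. The resting means were 10.72 ± 0.23 (SD, n = 2 lines) in kidney and 3.68 ± 0.26 in mammary lines. With the dim level put in place of the dim mammary values, the kidney signal plus offset was at least 43.9-fold higher. The second Hoxa9 probe set gave a smaller gap, at 8.56 and 8.53 in mProx, 8.49 and 8.47 in MCT, 4.97 and 6.12 in EpH4, and 6.28 and 7.18 in NMuMG, a resting difference of 2.90. It was above the dim level on 3 of the 4 mammary arrays, so the gene is dim in mammary lines by the first probe set only.

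Hoxa10, known for its role in the uterus, was at 10.46 and 9.74 in mProx (resting, then stimulated, as in all following quartets), 9.20 and 8.97 in MCT, 4.87 and 4.58 in EpH4, and 4.82 and 4.92 in NMuMG. By the same bound its kidney level was at least 23.7-fold higher. Its other probe set lay near the dim level in all lines, at 5.67 in mProx, 5.51 in MCT, 4.34 in EpH4 and 5.01 in NMuMG at rest. Hoxb13, a marker of prostate epithelium, was at 8.45 and 7.65 in mProx, 8.89 and 8.53 in MCT, 3.60 and 3.63 in EpH4, and 3.64 and 3.66 in NMuMG, at least 10.6-fold higher in kidney by that bound. Hoxb9 was at 10.31 and 10.18 in mProx, 10.04 and 9.89 in MCT, 4.89 and 4.15 in EpH4, and 5.37 and 6.62 in NMuMG. NMuMG was above the dim level for Hoxb9 on both arrays, and its higher array was 3.26 under the lowest kidney array.

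Among posterior Hoxc genes, Hoxc10, which acts in hindlimb-level motor neurons, was at 10.25 and 9.54 in mProx, 8.23 and 8.12 in MCT, 5.18 and 5.18 in EpH4, and 4.28 and 4.46 in NMuMG. Hoxc9, which sets thoracic motor neuron identity, was at 8.58 and 7.56 in mProx, 7.75 and 8.33 in MCT, 4.17 and 4.40 in EpH4, and 4.69 and 4.96 in NMuMG. Hoxc13, a regulator of hair keratins, was at 8.45 and 8.60 in mProx, 7.31 and 7.67 in MCT, 4.14 and 4.10 in EpH4, and 4.76 and 3.95 in NMuMG. For these 3 genes the mammary arrays were all dim and the kidney arrays were all above 7. The kidney levels were at least 15.7-fold higher for Hoxc10, at least 7.46-fold for Hoxc9 and at least 6.12-fold for Hoxc13.

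The central and anterior genes with the same pattern included Hoxb2, which acts in hindbrain facial motor neurons. It was at 8.76 and 9.04 in mProx, 8.94 and 9.28 in MCT, 4.76 and 4.37 in EpH4, and 3.88 and 5.50 in NMuMG. Hoxb5 was at 7.75 and 7.05 in mProx, 7.02 and 7.43 in MCT, 3.79 and 4.0 in EpH4, and 3.84 and 3.73 in NMuMG. Hoxd8 was at 8.80 and 8.60 in mProx, 7.92 and 7.89 in MCT, 4.99 and 5.01 in EpH4, and 5.22 and 4.19 in NMuMG, and its second probe set gave a difference of 3.48 beside 3.25. Mammary arrays were dim for these genes, except the stimulated NMuMG array for Hoxb2.

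Hoxc8, a gene of the lower trunk, was at 7.46 and 6.77 in mProx, 6.02 and 6.45 in MCT, 3.55 and 4.82 in EpH4, and 3.79 and 3.77 in NMuMG. Hoxc5 was at 7.29 and 6.56 in mProx, 5.71 and 5.59 in MCT, 4.76 and 4.97 in EpH4, and 4.24 and 3.58 in NMuMG. Hoxc4 was at 7.84 and 7.24 in mProx, 7.48 and 7.26 in MCT, 5.43 and 4.34 in EpH4, and 3.73 and 3.96 in NMuMG. By these probe sets the tissues did not overlap, and resting EpH4 for Hoxc4 was the only mammary value above the dim level. In the 2 other Hoxc5 probe sets the tissues overlapped once stimulated arrays were included. In the first, stimulated MCT was at 4.23 under EpH4 at 5.44 and 6.01, and in the second, resting MCT was at 3.95 under stimulated EpH4 at 4.45. The largest within-kidney gap of these genes was that of Hoxc5, 1.58 higher in resting mProx than in resting MCT.

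Other genes were above the dim level in all lines, by the chosen probe set, and still higher in the kidney lines. Hoxb6 was at 9.87 and 9.89 in mProx, 9.54 and 9.45 in MCT, 5.93 and 5.89 in EpH4, and 6.23 and 7.17 in NMuMG. Hoxb3 was at 9.77 and 9.33 in mProx, 8.72 and 8.78 in MCT, 6.96 and 7.01 in EpH4, and 6.04 and 6.86 in NMuMG. With both tissues above the dim level, the resting fold differences were 12.3 for Hoxb6 and 6.71 for Hoxb3. Hoxc6 was at 8.65 and 8.33 in mProx, 7.70 and 7.61 in MCT, 6.97 and 7.17 in EpH4, and 6.30 and 6.46 in NMuMG, a 2.91-fold difference. The Hoxc6 probe set is of a kind marked as open to cross-hybridization, and a probe set without that mark gave a difference of 1.69 beside 1.54. Another probe set, also unmarked, was above the dim level on 3 of 8 arrays, with 3.69 and 6.26 in mProx, 6.18 and 5.55 in MCT, 4.15 and 4.81 in EpH4, and 3.71 and 3.76 in NMuMG, so by it resting mProx lay under both EpH4 and NMuMG.

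Hoxb4, known for expanding blood stem cells, divided the mammary lines rather than the tissues. It was at 7.71 and 7.48 in mProx, 7.71 and 8.02 in MCT, 7.44 and 7.40 in EpH4, and 5.28 and 5.48 in NMuMG. Resting EpH4 was within 0.05 of the lowest kidney array, and NMuMG was near the dim level. Its other probe set showed the same division, with 6.55 in EpH4 and 5.11 in NMuMG against 6.53 and 6.73 in the resting kidney lines.

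Hoxa5, a regulator of lung development, was above the dim level in all lines without dividing them by tissue, at 7.19 and 8.02 in mProx, 8.26 and 8.13 in MCT, 8.45 and 8.33 in EpH4, and 7.67 and 8.32 in NMuMG. Its probe set is also marked as open to cross-hybridization. The second one gave 8.12 in mProx, 7.83 in MCT, 8.27 in EpH4 and 7.02 in NMuMG at rest, so the sign of the small tissue difference turned from -0.34 to 0.33. Hoxa3, needed for the thymus and parathyroid, was at 7.33 and 7.10 in mProx, 6.24 and 6.96 in MCT, 6.26 and 6.50 in EpH4, and 6.69 and 7.45 in NMuMG. A second Hoxa3 probe set gave 7.43 in mProx, 6.72 in MCT, 6.03 in EpH4 and 6.65 in NMuMG at rest, a difference of 0.74 beside 0.31. With the probe sets chosen by the rule, the tissues overlapped for both genes.

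Hoxa4 was at 5.91 and 5.79 in mProx, 6.63 and 6.34 in MCT, 6.43 and 5.59 in EpH4, and 5.04 and 5.02 in NMuMG, dim only in NMuMG. Hoxa13, a gene of digits and the genital tract, stayed between 5.28 and 5.87 on the 8 arrays. Hoxa11, a paralog 11 gene of the kidney and uterus, was at 6.53 and 6.33 in mProx, 5.50 and 5.89 in MCT, 5.81 and 6.15 in EpH4, and 5.80 and 5.71 in NMuMG. Hoxd11, the other paralog 11 gene measured, was dim on every array, with its highest level, 5.14, in resting MCT. For neither paralog 11 gene did every kidney array lie above every mammary array, as they did for Hoxa9 and Hoxa10.

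**Figure D3:**
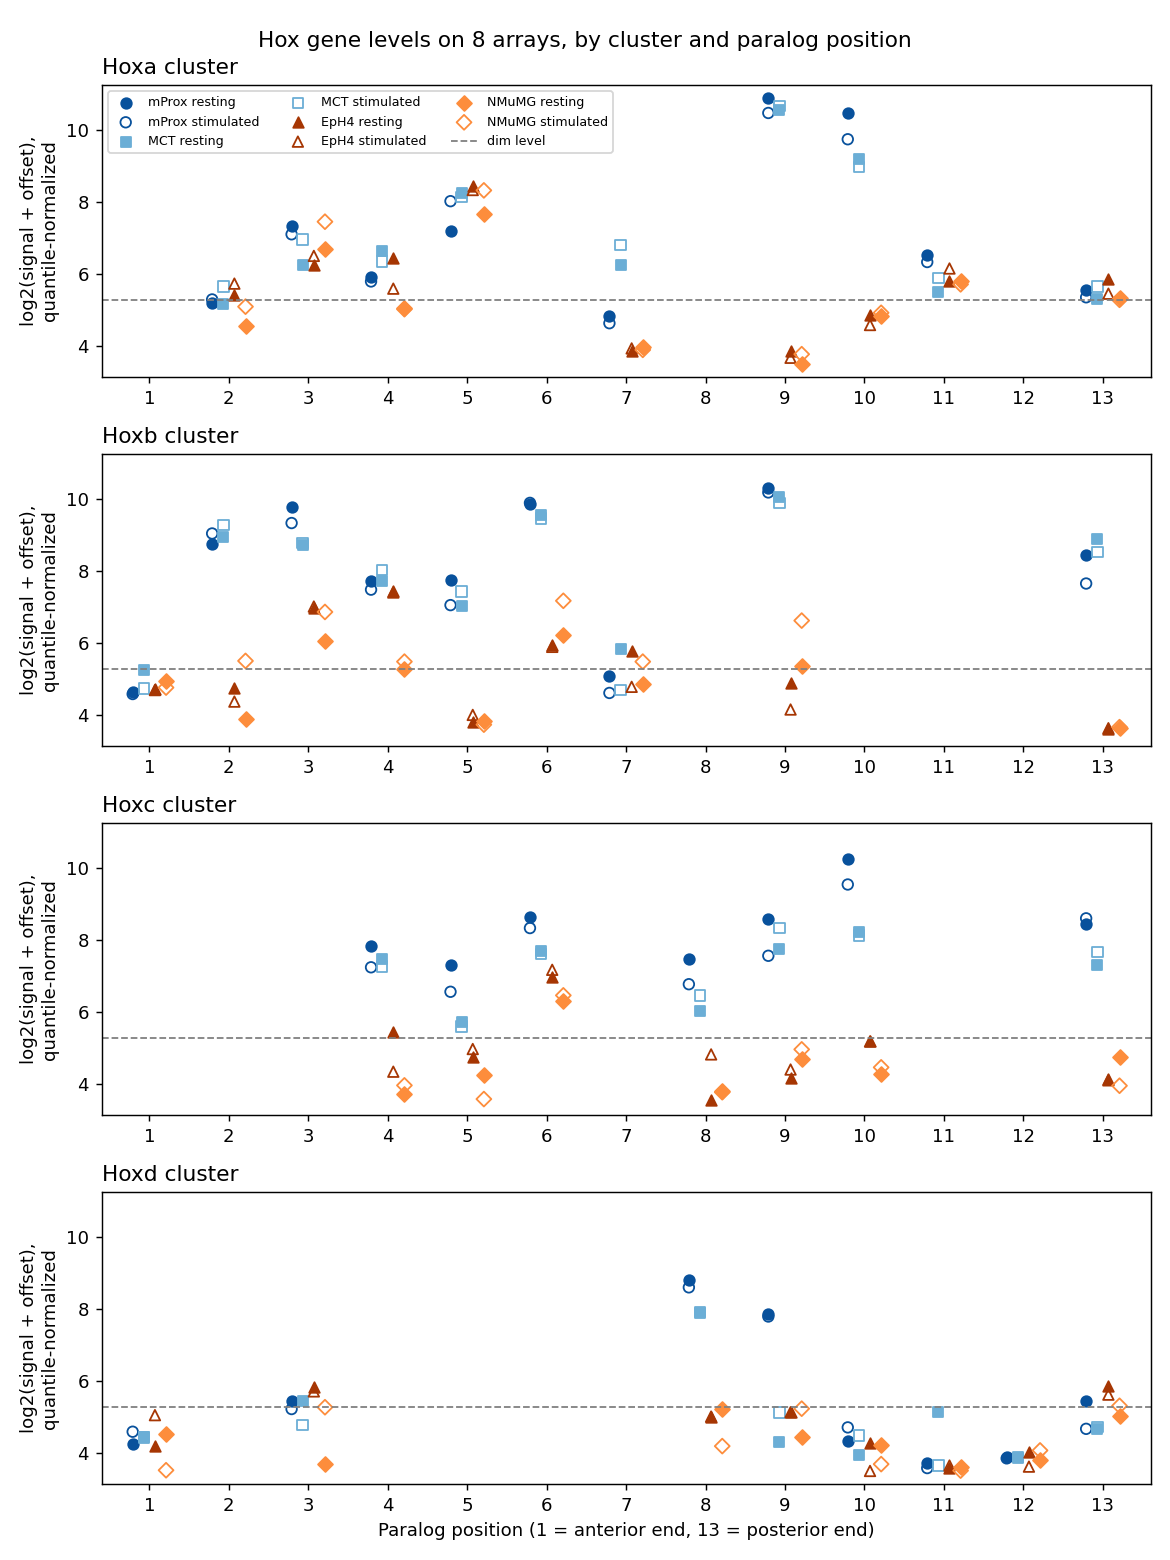
Level of each Hox gene (log2 of signal plus offset, quantile-normalized) against its paralog position, with 1 panel per cluster and 1 point per array, filled for resting and open for stimulated cells, kidney lines in blue and mammary lines in orange. The dashed line is the dim level, 5.27. Kidney points stand apart from mammary points at many central and posterior positions of Hoxb and Hoxc and at Hoxa9 and Hoxa10, while the tissues overlap at Hoxa2 to Hoxa5 and at most Hoxd positions.

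Within the kidney lines, resting mProx was at least 2-fold above resting MCT for 9 Hox genes (7.01% of all genes were) and at least 2-fold below for 3 (9.09% of all). The largest of these was Hoxd9, at 7.85 and 7.79 in mProx, 4.31 and 5.13 in MCT, 5.15 and 5.13 in EpH4, and 4.45 and 5.23 in NMuMG. It was above the dim level in mProx alone, so its tissue difference of 1.28 came from that line, and without mProx it was -0.50. The second largest was Hoxc10, 2.03 higher in mProx. In the other direction Hoxa7 was at 4.82 and 4.63 in mProx, 6.24 and 6.80 in MCT, 3.87 and 3.93 in EpH4, and 3.97 and 3.89 in NMuMG, above the dim level in MCT alone. The other 2 genes lower in mProx were Hoxa5 and Hoxd11.

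Within the mammary lines, resting EpH4 was at least 2-fold above resting NMuMG for 4 Hox genes, Hoxa4, Hoxb4, Hoxc4 and Hoxd3, against 16.2% of all genes. It was at least 2-fold below for 0, against 10.4%. Hoxd3 was at 5.44 and 5.22 in mProx, 5.45 and 4.77 in MCT, 5.82 and 5.71 in EpH4, and 3.70 and 5.27 in NMuMG, all close to or under the dim level.

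The remaining genes lay near or under the dim level. Hoxa2, a second branchial arch gene, was at 5.20 and 5.29 in mProx, 5.15 and 5.65 in MCT, 5.40 and 5.73 in EpH4, and 4.56 and 5.09 in NMuMG. Hoxb7, whose control region is used to drive transgenes in the ureteric bud, was at 5.07 and 4.61 in mProx, 5.83 and 4.69 in MCT, 5.77 and 4.78 in EpH4, and 4.85 and 5.48 in NMuMG. Hoxd13, a digit gene, was at 5.44 and 4.67 in mProx, 4.66 and 4.72 in MCT, 5.87 and 5.62 in EpH4, and 5.03 and 5.31 in NMuMG. Hoxb1, Hoxd1, Hoxd10, Hoxd11 and Hoxd12 were dim on all 8 arrays, which bounds their level and does not show that they are silent.

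The tissue difference at rest was tested with limma over the 12673 genes whose mean level reached the dim level, with 2 lines against 2. Of all genes, 0 passed a Benjamini-Hochberg adjusted p of 0.05 in either direction (0%), and 940 had an unadjusted p under 0.05 (4.78% with the kidney lines higher, 2.64% with them lower). Of the 33 Hox genes 23 entered the test, and 0 passed, with a smallest adjusted p of 0.262. Hoxa9 had the smallest p of all genes tested, with a difference of 7.04 (SE 0.47, 95% confidence interval 5.82 to 8.25). The difference was 5.05 (3.84 to 6.25) for Hoxb9, 5.05 (3.86 to 6.24) for Hoxb13, 4.99 (3.45 to 6.52) for Hoxa10 and 4.53 (3.16 to 5.90) for Hoxb2. These intervals do not cover the choice of offset or probe set. With an offset of 1, Hoxa9 was at 9.18 and Hoxb13 at 7.21, and with 32 at 5.64 and 3.67, all outside their intervals. With the mean over probe sets, Hoxa9 at 4.97 and Hoxa10 at 2.95 were also outside. Hoxb9 and Hoxb2 stayed inside theirs under these settings. Intervals that included 0 were those of Hoxa3, Hoxa4, Hoxa5, Hoxa11, Hoxa13, Hoxb4 and Hoxd9, for example -1.88 to 1.21 for Hoxa5.

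Of the 23 genes tested, 14 had a dim mammary mean and passed the filter on low values through the kidney arrays. Counts are therefore given over all 33 genes without that filter. On this basis 16 of 33 Hox genes had an unadjusted p under 0.05 with the kidney lines higher and 0 with them lower, against 4.19% and 2.62% of all genes. None passed the adjusted threshold. In the filtered test with the values taken as deposited, without quantile normalization, 8 genes passed in all. Of these, 2 were Hox genes, Hoxa9 (7.09) and Hoxb13 (5.21), each with an adjusted p of 0.0467 by limma. By the normalized levels both were among the 14 genes that passed the filter through the kidney arrays, so these calls depend on that filter.

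Markers of the labelled tissues were read on the same arrays. Summed signals of markers, here and further on, are of normalized signal plus the offset of 10.6 per gene. Ratios of these sums are therefore not ratios of signal. The summed kidney tubule and general epithelial markers divided the lines by tissue, though not every gene in these lists did. The summed mammary markers did not. Of 7 measured kidney tubule markers, 5 were above the dim level in resting mProx and 6 in MCT, against 3 in EpH4 and 4 in NMuMG, and their summed signal was 2995 to 8419 in kidney and 237 to 306 in mammary lines. Of 8 mammary epithelial markers, 6 were above it in EpH4, 5 in NMuMG, 1 in mProx and 4 in MCT, with sums of 317 to 2455 in mammary and 247 to 347 in kidney lines. The NMuMG sum, 317, lay under that of MCT, and Krt14, a basal keratin, was at 10.85 in EpH4 and dim in NMuMG at 4.05. Of 8 general epithelial markers, 8 were above it in EpH4, 5 in NMuMG, 5 in MCT and 4 in mProx, with sums of 13527 to 38563 in mammary and 1393 to 3493 in kidney lines. Cdh1, the epithelial cadherin, was dim in both kidney lines, at 3.53 and 3.87, against 11.84 in EpH4 and 10.69 in NMuMG. Other epithelial markers did not follow tissue. Epcam and Esrp1 were above the dim level in resting EpH4 and MCT and dim in NMuMG and mProx. Cldn7 was dim in NMuMG as in both kidney lines. Among tubule markers, the tissues overlapped at rest for Cubn and Slc34a1, and Emx2 was above the dim level in NMuMG as well. The part of these tubule and epithelial markers in the Hox difference was not tested.

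Markers of other cell types divided the lines in part. Of 10 fibroblast markers, 7 were above the dim level in EpH4, 6 in NMuMG, 6 in mProx and 2 in MCT, with overlapping summed signals of 331 to 2146 in kidney and 699 to 1347 in mammary lines. Twist1, Prrx1 and Col1a1 among them were above the dim level in both resting mammary lines and dim in both kidney lines, for example Prrx1 at 6.97 in EpH4, 9.34 in NMuMG, 4.53 in mProx and 4.57 in MCT. Others went the other way. Col3a1 was at 6.92 in mProx and 5.91 in MCT, against 5.82 in EpH4 and 4.87 in NMuMG at rest. Dcn, at 10.56, and Lum, at 7.39, were above the dim level in resting mProx alone. Of 5 endothelial markers 1 was above it in EpH4, NMuMG and mProx and 3 in MCT, with sums of 154 to 201 in kidney and 160 to 166 in mammary lines. Pecam1 was dim in all 4. Of 5 leukocyte markers 4 were above it in each line, with sums of 503 to 2159 in kidney and 398 to 472 in mammary lines, so both kidney lines were higher. Csf1r, at 10.91 in mProx and 7.22 to 7.58 in the other lines, was one of them, and the defining gene Ptprc was dim in all. The part of these markers in the Hox difference was not tested.

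Of the non-coding RNAs made within the clusters, 3 were measured, and 2 of these were above the dim level in the kidney lines and dim in the mammary lines. Hoxb5os, an opposite-strand transcript of Hoxb5 by its name, was at 10.82 and 9.92 in mProx, 8.98 and 7.92 in MCT, 4.22 and 4.82 in EpH4, and 4.54 and 3.93 in NMuMG, a difference of 5.52 (SE 0.74, limma adjusted p 0.262). Hoxd3os1 was at 6.97 and 5.79 in mProx, 5.67 and 5.52 in MCT, 4.66 and 4.72 in EpH4, and 3.71 and 4.06 in NMuMG. Hoxa11os was dim on all 8 arrays. These 3 were the measured members of a list of 16 cluster non-coding RNAs, and 1 of them entered the test.

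Genes flanking the clusters, which are not Hox genes, lay on both sides of 0. Of 18 tested, 0 passed in either direction, 8 were above 0, and their median difference at rest was -0.13 against 0.02 over all genes tested. Those farthest from 0 were Cbx5, a heterochromatin protein gene beside Hoxc, at 1.00 (SE 0.29) and Evx2, a homeobox gene beside Hoxd13, at -0.99 (SE 0.51). The smallest adjusted p among them was 0.554 by limma.

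Partners and regulators of Hox genes were read in the same comparison. Of 8 TALE cofactors, the PBX, MEIS and PREP proteins that bind DNA with HOX proteins, 0 passed in either direction. Their median difference was 0.91, with 7 of 8 above 0, and the largest were Pbx4 at 1.17 (SE 0.59), Meis3 at 1.05 (SE 0.74) and Pbx3 at 1.04 (SE 0.37). Meis1 went the other way, at -0.97 (SE 0.51). Of 28 Polycomb genes, which keep Hox genes silent, 0 passed, with a median of 0.09 and all 28 above the dim level in every line. Cbx6 (1.64, SE 0.57), Suz12 (0.86, SE 0.30) and Kdm2b (0.82, SE 0.36) were highest, and Pcgf5 (-0.81, SE 0.32) was lowest.

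Of 12 Trithorax and H3K27 demethylase genes, which keep Hox genes active, 0 passed, with a median of -0.01 and extremes of 0.64 (SE 0.49) for Men1 and -0.76 (SE 0.43) for Kdm6a. Of 10 tested upstream inputs, such as retinoic acid receptors and Cdx factors, 0 passed, with a median of 0.00. Gmnn, an inhibitor of replication licensing that also binds HOX proteins, was at 1.82 (SE 0.54), and Cyp26b1, which breaks down retinoic acid, was at -2.47 (SE 1.52). The Cyp26b1 value came from NMuMG alone, at 9.07 at rest. The gene was dim in resting EpH4 (4.55), mProx (3.94) and MCT (4.74). Of 5 tested genes that work with paralog 11 genes in the kidney, 0 passed, with a median of -0.93. Eya1 was at 3.08 (SE 1.02) and Sall1 at 2.60 (SE 0.93), while Gdnf, the ureteric bud growth factor, was at -4.67 (SE 0.90). Gdnf was highest in EpH4, at 10.18 at rest, and dim in MCT, at 3.98, and the smallest adjusted p of this list was 0.35 by limma.

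After 24 h of TGF-b1 and EGF, the division of Hox levels between the tissues was still present. The median difference between kidney and mammary lines was 1.31 over the 33 genes in stimulated cells, beside 1.54 at rest, and -0.01 over all genes. The change, stimulated minus resting, was tested with the line as a block. Over 4 lines 0 of 12673 genes passed by limma (0%), and before adjustment 1465 had a p under 0.05, 6.21% of those tested being higher and 5.35% lower. Among the 23 Hox genes tested, none had even an unadjusted p under 0.05 in either direction, and the lowest adjusted p was 0.542. Without EpH4, 13 genes passed, 5 higher (0.0395%) and 8 lower (0.0631%), and 0 of them were Hox genes. Before adjustment 6.47% of the genes tested were higher and 6.16% lower at p under 0.05.

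The fitted changes of Hox genes were small as measured. Of the 23 tested genes, 14 had a dim mammary mean, and the offset understates changes of dim genes. Over 4 lines the fitted changes lay between 0.47 for Hoxb2 (95% confidence interval -0.23 to 1.16) and -0.42 for Hoxc4 (-1.0 to 0.17). Both genes were dim on some mammary arrays, and Hoxb2 was at 0.70 with an offset of 1. Hoxc6, whose chosen probe set was above the dim level on all 8 arrays, was at -0.01 (-0.36 to 0.34). Hoxa9 was at -0.06 (-0.44 to 0.33), but its mammary arrays were dim by this probe set, so that interval does not bound a change in those lines. Over the 3 lines without EpH4, Hoxb2 was the one Hox gene with an unadjusted p under 0.05, at 0.75 (SE 0.29, limma adjusted p 0.359). By line, its change was 1.63 in NMuMG, 0.34 in MCT, 0.29 in mProx and, in the line left out of that fit, -0.39. The lowest were Hoxc5 at -0.51 (SE 0.28) and Hoxd8 at -0.42 (SE 0.25).

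Each line has 1 array per condition, so the changes of a single line have no replicate check. In mProx, 26 of the 33 Hox genes were lower in stimulated cells and 7 higher, against 48.2% and 51.7% of all genes. The median change was -0.22, against 0.02 over all genes. Among the 23 Hox genes above the dim level on both mProx arrays, 19 were lower, against 49.8% of all such genes. The lowest were Hoxc9 at -1.02, Hoxb13 at -0.80, Hoxc5 at -0.74, Hoxa10 at -0.72 and Hoxc10 at -0.72, and Hoxa5 was the highest at 0.83. On the same 2 arrays the summed signal of kidney tubule markers went from 8419 to 3082, that of fibroblast markers from 2146 to 710 and that of leukocyte markers from 2159 to 496, and their part in the Hox values was not tested.

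MCT, the other kidney line, had 16 of 33 Hox genes lower (51.8% of all genes) and 17 higher (48.1%), with a median of 0.01. Of its 23 genes above the dim level on both arrays, 11 were lower. The lean towards lower levels in mProx was therefore not seen in both kidney lines. The summed tubule markers of MCT went from 2995 to 1664. Its fibroblast markers went from 331 to 359 and its leukocyte markers from 503 to 437, and their part was not tested. In NMuMG, 20 of 33 were higher (54.5% of all genes) and 13 lower (45.3%), with a median of 0.18 against 0.04. Of the 9 above the dim level on both NMuMG arrays 7 were higher, against 53.9% of all such genes, and their median was 0.65. In EpH4, 19 of 33 were lower (49.3% of all genes) and 14 higher (50.6%), with a median of -0.03.

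Among Hoxb genes in NMuMG, Hoxb2 was at 1.63, Hoxb9 at 1.26, Hoxb6 at 0.94 and Hoxb3 at 0.82. Hoxb7 was at 0.63 and Hoxb4 at 0.21. Outside Hoxb, Hoxd3 was at 1.57, Hoxd9 at 0.79, Hoxa3 at 0.77 and Hoxa5 at 0.65, while Hoxd8 was at -1.04. Hoxb genes above the dim level went from 4 to 6 of 9 in this line, and the share of all genes from 67.1% to 69%. The Hoxb genes added, Hoxb2 at 5.50 and Hoxb7 at 5.48, lay just above that level. Hoxb13 at 0.02, Hoxb5 at -0.11 and Hoxb1 at -0.19 stayed dim on both arrays. In the other mammary line, EpH4, the same cluster lay between 0.21 for Hoxb5 and -0.98 for Hoxb7.

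A 2-fold change was reached by few Hox genes. In NMuMG, Hoxb2, Hoxd3 (1.57) and Hoxb9 were higher, against 3.91% of all genes, and Hoxd8 was lower (-1.04), against 2.62%. In EpH4, Hoxc8 was higher (1.27), against 2.48%, and Hoxc4 lower (-1.09), against 2.18%. In MCT, 0 were higher, against 3.7%, and Hoxd11 (-1.49) and Hoxb7 (-1.15) were lower, against 3.64%. In mProx, 0 were higher, against 3.59%, and Hoxc9 was lower, against 3.19%. Hoxc9 in mProx and Hoxb9 in NMuMG were the 2 of these with both arrays above the dim level. Dim arrays make the size of the other changes uncertain.

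**Figure D4:**
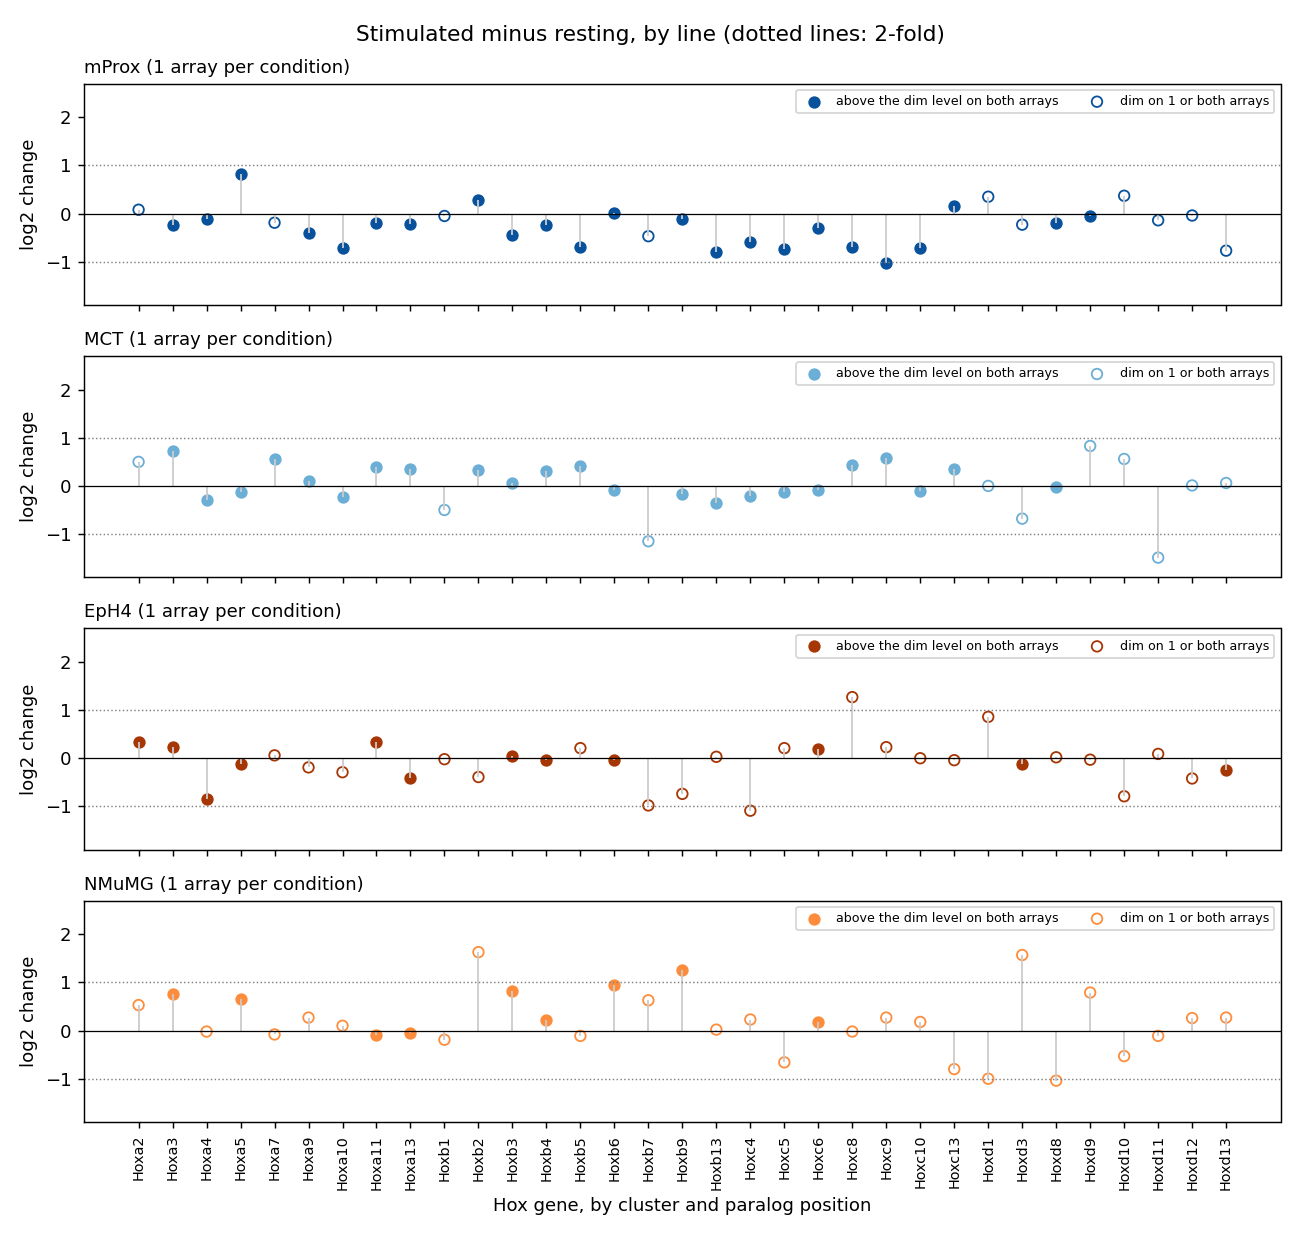
Change of each Hox gene (stimulated minus resting, log2) in each line, 1 array per condition, ordered by cluster and paralog position. Filled points are above the dim level on both arrays, open points are dim on at least 1, and dotted lines mark 2-fold. In mProx 26 of 33 points lie under 0, and in NMuMG Hoxb2 (1.63) and Hoxb9 (1.26) lie above 1.

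Across lines, Hoxa2 was higher after the stimulus in each of 4 lines (9.69% of all genes were), by 0.08 to 0.53. Hoxa4 and Hoxb1 were lower in each of 4 lines (8.03% of all genes were), with changes of -0.84 to -0.02 for Hoxa4 and -0.50 to -0.02 for Hoxb1, which was dim throughout. These shares of the 33 genes, 3.03% and 6.06%, were no larger than those over all genes. In the 3 lines without EpH4, 2 Hox genes were higher in each (17.4% of all) and 5 lower in each (15.1% of all).

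The difference between the tissues' responses was tested on the 4 within-line changes. By limma 0 of 12673 genes passed, and 747 had a p under 0.05 before adjustment, 2.84% of those tested with the kidney change higher and 3.05% with it lower. Of the 23 Hox genes none reached that unadjusted level, and their lowest adjusted p was 0.925. The widest Hox values, kidney minus mammary change, were -0.76 for Hoxc8 (95% confidence interval -2.30 to 0.78), -0.62 for Hoxb3 (-1.46 to 0.21), -0.60 for Hoxb13 (-1.58 to 0.38) and 0.68 for Hoxc13 (-0.36 to 1.71). These intervals are wide enough to hold differences of 2-fold, so the comparison does not show that the tissues respond alike.

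The stimulus also left the listed partners and regulators without a call over 4 lines. Of the TALE cofactors, Polycomb, Trithorax, upstream, flanking and paralog 11 partner genes, 0 passed in either direction over 4 lines, without EpH4 or between the tissues' responses, by limma. The values farthest from 0 over 4 lines were Aldh1a1, a retinoic acid synthesis enzyme, at -0.96 (SE 0.70), Eya1 at -0.68 (SE 0.18) and Gdf11, a ligand that patterns the body axis, at -0.53 (SE 0.40). By line, Aldh1a1 went from 10.25 to 6.40 in NMuMG and, the other way, from 4.78 to 5.97 in mProx. It was dim on both arrays of EpH4 and of MCT, so its mean change rested mainly on NMuMG. Over 4 lines Hoxb5os was at -0.49 (SE 0.27, limma adjusted p 0.541). Median changes of these 6 lists ran from -0.07 for Trithorax genes to 0.12 for the paralog 11 partners, against 0.01 over all genes tested.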

How the data were processed

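Total RNA of 8 cultures was biotin-labelled and hybridised to single-colour Affymetrix mouse arrays. The authors deposited 1 linear intensity per probe set and array, made with MAS5 per the submitters' processing notes. The version, the scaling and the genome build behind it were not given in the sources used here. Detection calls were not read. Of 45101 probe sets, 64 were controls and were dropped. Before log2, 10.6 was added to each signal, an offset set at the 25th percentile of positive signals, which understates changes of dim genes, and arrays, whose medians differed by 0.43, were quantile-normalized, which removes overall shifts between arrays.

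Probe sets were named by the platform table: 34945 have 1 symbol, 932 have several and 9160 none. For each of 18193 genes, the brightest probe set by mean signal was kept. Of the Hox probe sets, 48 have 1 symbol, and 3 with several were left out. Of the 33 genes, 22 have 1 probe set and 11 have 15 others, of which 12 were above the dim level on some array. A signal may hold antisense transcripts where a probe set does not tell strands apart.

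Tests used limma 3.58.1 in R 4.3.3 (lmFit, eBayes with intensity trend) on genes whose mean level reached 5.27 (the 40th percentile), with Benjamini-Hochberg adjustment over all 12673. The procedure was tested on simulated data. For the tissue comparison, lines of a tissue differed there by random noise alone, so its power here was not tested. The line names pair the arrays, and deviations from the group means correlated at 0.73 to 0.851 across genes between the 2 arrays of a line, so the line was the block in every test of a response. The p-values reflect the spread among these lines alone, which may be technical in part, and the number of arrays limits the precision. Every Hox gene may be named; of each list, genes passing a test or otherwise the 3 farthest from 0 in each direction. Promoter windows are RefSeq's, the first listed per gene. Alternatives were the normalization, offset, filter, trend, probe set rule, block and each line left out. The members and gene lists were chosen with earlier results of these data known.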

Additional observations from a re-analysis of the deposited data

Results flagged for a closer look

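In all, 4 groups of 4 lines held a value far from the other 3, among 89 groups of levels or changes looked at, and chance gives about 1 in 20. The resting level of Hoxb4 was 5.28 in NMuMG, against 7.44 to 7.71 in the other lines. The change of Hoxb6 was 0.94 in NMuMG, against -0.09 to 0.02. The stimulated level of Hoxd9 was 7.79 in mProx, against 5.13 to 5.23. The change of Hoxd11 was -1.49 in MCT, against -0.14 to 0.09, and Hoxd11 was dim on every array.

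For 4 of the 33 genes, both kidney lines moved one way and both mammary lines the other, an ordering seen in 11.5% of all genes. The kidney minus mammary change was -0.60 for Hoxb13 (-0.80 and -0.36 against 0.03 and 0.02), -0.38 for Hoxc6 (-0.31 and -0.09 against 0.19 and 0.17), 0.68 for Hoxc13 (0.15 and 0.36 against -0.04 and -0.80) and 1.12 for Hoxd10 (0.37 and 0.56 against -0.79 and -0.53). Hoxd10 was dim on every array, and its difference was not tested. For the other three, limma gave a smallest adjusted p of 0.932.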

How the results depend on the processing

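The counts of Hox genes with the kidney lines above the mammary lines, with a 2-fold higher kidney mean, and above the dim level in kidney alone stayed within 1.5 times under every alternative run. The count at 8-fold, 13, became 7 with an offset of 32. A 2-fold change was reached by 2 Hox genes in EpH4, 2 in MCT, 1 in mProx and 4 in NMuMG; with an offset of 1 they were 7, 4, 2 and 11, with an offset of 32 they were 0 in each, and with values as deposited 4 in EpH4. These counts thus depend on the offset.

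No Hox gene was called in a response under any alternative run, the fit with no replicate block for the paired lines included (0 Hox genes called over 4 lines and over 3). Genes of any kind called over 3 lines were 13 in the fit with the line block, 0 with no replicate block, no filter or no intensity trend, 8 with the mean over probe sets, 21 with the filter at the 60th percentile, 77 with median-centred and 225 with deposited values, and 6 to 72 with a line left out (6 without mProx, 28 without MCT, 72 without NMuMG). Over 4 lines the 0 became 1 with an offset of 1, 4 with 32, 24 with median-centred and 244 with deposited values, and 0 to 13 with a line left out (13 without EpH4). For the difference between the tissues' responses the 0 became 22 with deposited values and 0 to 41 with a line left out (41 without MCT, 17 without mProx). At rest the 0 became 8 with deposited values, 2 of them Hox genes. The causes were not tested.

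Of the tested Hox genes, 17 of 23 kept the sign of the tissue difference throughout. With a line left out, it ranged from -0.23 (without mProx) to 0.85 for Hoxa3, -0.31 (without mProx) to 0.72 for Hoxa11, -0.16 (without NMuMG) to 1.23 for Hoxa4, -0.87 to 0.20 for Hoxa5 (0.06 without EpH4, 0.20 without mProx), -0.44 to 0.09 (without EpH4) for Hoxa13, and -0.50 (without mProx) to 3.05 for Hoxd9. Hoxa13 also turned in the stimulated arrays (0.13). The sign of the response turned under at least 1 alternative for 14 of 23 genes over 4 lines (Hoxa9 and Hoxc6 in 3 of 13 settings each), 15 over 3 lines and 15 between the tissues. Hoxa3 over 4 lines turned with the mean over probe sets (-0.00), and Hoxd8 between tissues turned with that mean (-0.12) and ranged from -0.13 (without NMuMG) to 0.93 with a line left out. A dim probe set bounds a level and does not measure it.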
